A study of Mus musculus with 8 samples.

Results

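The comparison described here sets Th17 cultures against the naive CD4 T cells from which such cultures start. It rests on 4 of the 8 mouse RNA-seq libraries of the series: Th17 replicates 1 and 2 and naive replicates 1 and 2. The members are all genes of the deposited count table, 23366 symbols, of which 11629 had enough counts to be tested. All cells were CD4+ T cells of C57BL/6 mice, sorted as naive from spleen and lymph nodes. The Th17 cells had been stimulated with antibodies to CD3e and CD28 and polarized by TGF-beta plus IL-6 over 3 days, with no TLR2 ligand. The naive cells are labelled as untreated. The other 4 libraries are Th17 cultures that also received PAM3CSK4 or biglycan. They entered the choice of tested genes, the scaling of library sizes and the estimate of the spread, but not the contrast itself. No source used here gives the age or sex of the animals, any pooling or the surface markers of the sort. Whether replicates are different animals or cultures is not labelled. All p-values are therefore set against the scatter of these libraries, which may be technical in part. Activation, polarizing cytokines, cell division and time in culture all differ between the groups, so their shares in any difference cannot be told apart.

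A naive CD4 T cell is a small, non-dividing cell that recirculates between blood and lymph nodes. Signals through its antigen receptor and CD28 start growth and division, and the cytokines present at that time direct which effector type arises. IL-6 acts through STAT3 and TGF-beta through SMAD proteins, and together they turn on the IL-17 genes of Th17 cells. Th17 cells are known for defence of mucosal surfaces and for their part in autoimmune inflammation.

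The 2 Th17 libraries held 11788948 and 10207664 gene counts, against 7012244 and 8029382 in the naive libraries. Levels are given as CPM, gene counts scaled to a common library total after scaling of the library size, one value per library with replicate 1 before replicate 2. A gene is said to have risen or fallen where it passed a Benjamini-Hochberg adjusted p of 0.05 in edgeR's quasi-likelihood test over all tested genes, and effects are log2 fold changes, Th17 over naive, ± standard error. Where a group had no counts the fold is a lower bound against 3 counts over that group, and where it had 1 to 3 counts the ratio of the CPM values is given with a 95% interval for counting. These bounds and intervals cover counting error only. In bulk RNA a change in the number of cells of a type and a change in RNA per cell cannot be told apart. The pan-T-cell genes Cd3e, Cd3g and Cd4 were expressed in all 4 libraries. Markers of other cells were summed by list. The 11 B cell markers summed to 1.27 and 0.967 CPM in Th17 and 6.27 and 3.79 CPM in naive, 8 of 10 red cell and platelet markers had no counts in each group, and 7 of 18 myeloid markers had none in each group. The myeloid list as a whole summed to 226 and 233 CPM in Th17, against 328 and 312 CPM in naive, most of it Ctss, a protease gene. The 12 stromal and endothelial markers summed to 169 and 225 CPM in Th17 and 351 and 370.5 CPM in naive, most of it Pecam1, and Dcn and Pdgfra were at or near 0. Among the CD8 T and NK cell markers, Cd8b1 was at 5.40 and 4.25 CPM in Th17, against 20.9 and 19.97 CPM in naive, and Ncr1 had no counts. That list summed to 288 and 293 CPM in Th17, against 138 and 151 CPM in naive. Of its 5 tested members 2 rose, Klrd1 among them, and 3 fell, namely Cd8b1, Eomes and Prf1. Values of Klrd1, Eomes and Prf1 are given below. The 6 gamma-delta T and innate lymphoid markers in the table summed to 18.7 and 21.4 CPM in Th17, against 1.64 and 1.14 CPM in naive, with 1 of them at 0 in each group, and 2 of the 3 that were tested rose. The part of other cells in the results below was not tested.

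A limit of the counting bears on particular genes. In 1152 of the 11629 tested genes at least 25% of the longest coding transcript lies in a stretch with at least 95% identity to another gene's transcript, so that reads from it need not be assigned to one place. Such genes are called copy genes here. Gapdh, a copy gene that ranks among the most abundant transcripts of most cells, was at 3.04 CPM in Th17 and 16.95 CPM in naive. The deposited RPKM values, which also divide by gene length, gave a second view of direction. In the 4 libraries 73.4% to 76.1% of the count table's total stood in a separate row for alignments without a unique place, and 11.7% to 12.9% was assigned to genes. How the RPKM values treated such reads is not stated in the sources used here. Among genes that changed at least 2-fold by count, 16 of 339 copy genes went the other way in RPKM relative to its median, against 0 of 2880 genes without copies. Over all 3592 such genes, which include some without a matched transcript, 24 did. A transcript was matched for 90.4% of tested genes, and the rest could not be checked for copies. Direction in copy genes is therefore reported as uncertain, and list counts are repeated without them where the list holds many.

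Most genes differed between the groups. Of the 11629 tested genes 8390, or 72.1%, passed: 4395 (37.8%) rose and 3995 (34.4%) fell, with a median log2 fold change of 0.035 over all tested genes. At least 2-fold differences were called for 2301 genes higher (19.8%) and 1623 lower (14.0%), and for 9769 genes no Th17 library overlapped a naive one (84.0%). By fitted fold change, 984 genes rose and 246 fell by 8-fold or more. Genes without counts in a group entered there at their fitted fold, not at the lower bound. Genes that came on were more numerous than genes that went off, since 349 genes had at least 10 counts in Th17 and none in naive, against 45 genes with the converse. With one naive library left out, the first of these counts was 533 for naive replicate 1 alone, and with one Th17 library left out it was 223 for Th17 replicate 2 alone. The second was 88 for either Th17 library alone, 17 for naive replicate 1 alone and 21 for naive replicate 2 alone. The Th17 libraries were the deeper ones, and the part of depth in these counts was not tested. Counts of members below are to be read against 37.8% risen and 34.4% fallen.

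**Figure D1:**
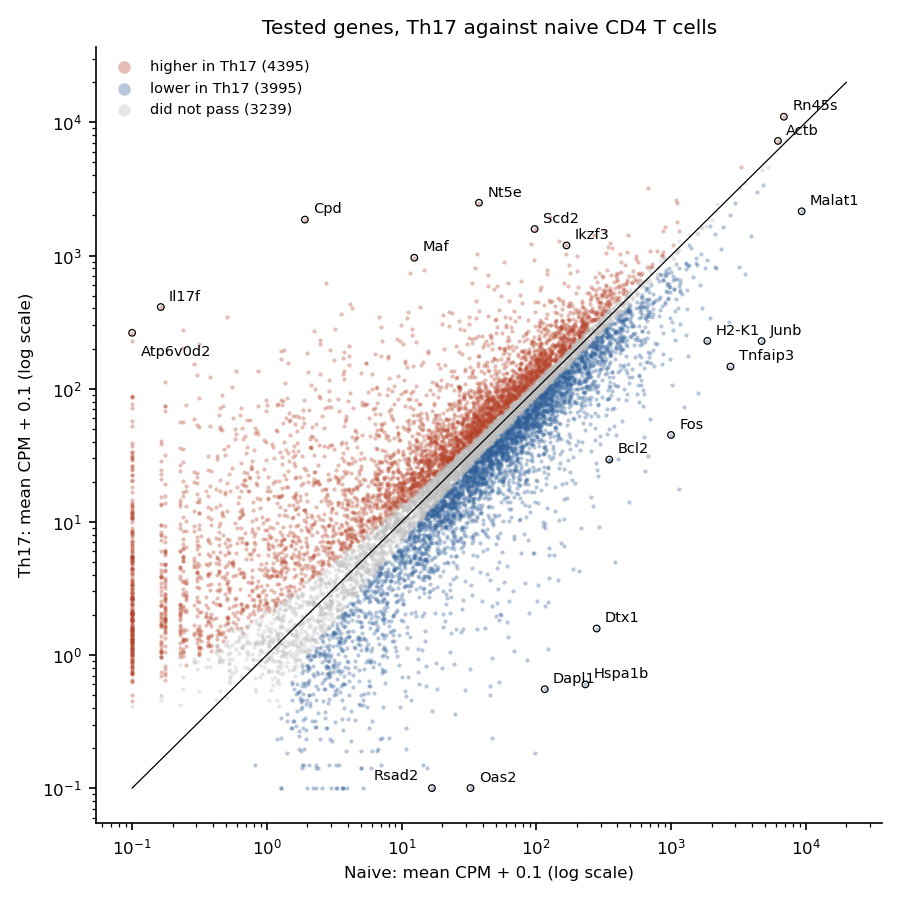
Mean level of each of the 11629 tested genes in Th17 cultures (vertical axis) and naive cells (horizontal axis), both as CPM plus 0.1 on log scales; each point is a gene and the line marks equal levels. The 4395 genes above the line in red rose, the 3995 in blue fell, and the column at the left edge holds genes such as Atp6v0d2 with no naive counts.

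The 15 genes with the largest gains in CPM did not include the IL-17 genes. Nt5e, which encodes the adenosine-producing ectoenzyme CD73, was at 2502 and 2476 CPM in the Th17 libraries, against 40.9 and 34.00 CPM in the naive libraries, a log2 fold change of 6.06 ± 0.11. Cpd, the gene of carboxypeptidase D, which trims basic residues from proteins in the secretory path, was at 2073 and 1649 CPM in the Th17 libraries, against 2.24 and 1.39 CPM in the naive libraries (10.02 ± 0.18). Trp53inp1, a p53-inducible regulator of autophagy and cell death, was at 3307 and 3131 CPM in the Th17 libraries, against 791 and 558 CPM in the naive libraries (2.26 ± 0.12). In each of these genes both Th17 libraries lay far above both naive libraries. The guanylate-binding protein gene Gbp2 (3.95 ± 0.10), the fatty acid desaturase gene Scd2 (4.03 ± 0.11), the amyloid precursor-like gene Aplp2 (3.74 ± 0.09), the scaffold gene Ahnak (3.11 ± 0.10), the Rab regulator gene Gdi2 (2.41 ± 0.08) and Ctnnb1, which encodes beta-catenin (2.24 ± 0.08), were among the 15 genes with the largest gains. Rn45s, the ribosomal RNA precursor, had the largest gain of all, at 10232 and 11816 CPM in the Th17 libraries, against 6615 and 7150.1 CPM in the naive libraries. Ribosomal RNA took 2.57 and 2.75% of reads in the Th17 libraries, against 2.06 and 1.92% in naive, and its part in the Rn45s value was not tested.

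The 15 genes with the largest losses in CPM had diverse roles and included B2m and H2-K1, whose values are given with MHC class I below. The nuclear noncoding RNA Malat1 was at 2121 and 2175 CPM in the Th17 libraries, against 9671 and 8992 CPM in the naive libraries (-2.12 ± 0.09). Junb, an AP-1 subunit, was at 239.7 and 215 CPM in the Th17 libraries, against 4625 and 4787 CPM in the naive libraries (-4.37 ± 0.10), and Tnfaip3, which encodes the NF-kB inhibitor A20, was at 144 and 149 CPM in the Th17 libraries, against 2841 and 2683 CPM in the naive libraries (-4.24 ± 0.09). Stk17b, the gene of a kinase that restrains T cell receptor signals, also fell (-2.27 ± 0.10). Further genes among the 15 with the largest losses were Klf6 (-3.08 ± 0.09), the MAP kinase phosphatase gene Dusp10 (-4.10 ± 0.09), the GTPase gene Gimap6 (-2.53 ± 0.08), the cytoskeletal linker gene Macf1 (-1.47 ± 0.08) and S1pr1, whose receptor lets T cells leave lymph nodes (-1.43 ± 0.08). The 15 genes with the largest gains made up 11.1% of the summed gain in CPM and the 15 with the largest losses 13.4% of the summed loss, so most of the shift lay in other genes.

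Genes of the Th17 programme were high in the cultures: 23 of 25 tested members rose and 2 fell, with a median log2 fold change of 4.94, or 4.77 with genes lacking naive counts at their lower bound. Maf, a factor of IL-10 and IL-21 production, was at 1044 and 879.9 CPM in the Th17 libraries, against 14.04 and 10.6 CPM in the naive libraries (6.30 ± 0.14). Ahr, the aryl hydrocarbon receptor gene, was at 158 and 101 CPM in the Th17 libraries, against 5.97 and 5.94 CPM in the naive libraries (4.44 ± 0.20), with Th17 replicate 1 the higher of the pair. Ccr6, the receptor for CCL20 that marks Th17 cells, had 16.04 and 17.02 CPM in the Th17 libraries, against no counts in either naive library (at least 80.3-fold higher). Per length, Il17f stood above Il17a: Il17f was at 240.1 and 187 RPKM in the Th17 libraries, against 0 and 0.0579 RPKM in the naive libraries, and Il17a at 49.2 and 39.1 RPKM in the Th17 libraries, against 0 and 0 RPKM in the naive libraries. Receptor genes of the pathway also came on, with Il1r1 at 33.8 and 23.6 CPM in Th17, against 0 and 0.126 CPM in naive, and with Il23r at 7.77 and 3.09 CPM in Th17, against no counts in either naive library. Tmem176a, a membrane protein gene, rose by 4.94 ± 0.26, and the cytokine gene Lif by 5.23 ± 0.30. Against the list, Batf, an AP-1 factor needed for Th17 differentiation, was at 25.7 and 27.5 CPM in the Th17 libraries, against 41.4 and 51.8 CPM in the naive libraries (-0.82 ± 0.12), and Nfkbiz, which promotes IL-17 production, changed by -2.23 ± 0.08. Il22, Il9, Il24 and Cd5l had too few counts to be tested.

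Genes of the other helper fates moved in both directions. In the list of their factors 8 of 19 tested members rose and 10 fell. Prdm1, which encodes the effector factor Blimp-1, was at 0.591 and 0.290 CPM in the Th17 libraries, against 11.5 and 9.35 CPM in the naive libraries (-4.49 ± 0.39). The Th2 factor gene Gata3 was at 14.9 and 18.5 CPM in the Th17 libraries, against 68.5 and 61.4 CPM in the naive libraries, Eomes, a factor of cytotoxic cells, changed by -2.88 ± 0.42, and Runx3, a partner of T-bet, by -1.44 ± 0.11. All 4 of these fell, with both Th17 libraries under both naive libraries. Tbx21, the Th1 factor T-bet, stayed low at 0.929 and 1.45 CPM in Th17, against 0.299 and 0 CPM in naive, although it rose (adjusted p = 0.0045). Without naive replicate 2 it no longer passed (adjusted p = 0.0885). Among the risen factors, Ikzf3, the Aiolos gene, was at 1174 and 1207 CPM in the Th17 libraries, against 173 and 162 CPM in the naive libraries (2.83 ± 0.08), while its relatives Ikzf1 (-1.14 ± 0.09) and Ikzf2 (-1.16 ± 0.18) fell and Ikzf4 rose by 2.35 ± 0.19. Tox2, a factor of follicular helper cells, had 9.71 and 13.2 CPM in the Th17 libraries, against no counts in either naive library, and Bcl6, which directs that lineage, rose by 1.55 ± 0.10, whereas Tox fell (-0.56 ± 0.10). Among further members Id3 rose (0.91 ± 0.11), and Stat4 (-0.92 ± 0.08), Stat6 (-0.87 ± 0.08) and Zbtb7b (-0.34 ± 0.08) fell. Zbtb32 rose from a low level (a ratio of 43.1, counting interval 11.7 to 359.9). Foxp3, the regulatory T cell factor, did not pass (-0.62 ± 0.30, adjusted p = 0.0719).

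Core T cell genes mostly fell. In the identity list 2 of 17 tested members rose and 11 fell, with a median of -0.50. Themis, which tunes the signal of the antigen receptor, was at 99.5 and 113 CPM in the Th17 libraries, against 617 and 523 CPM in the naive libraries (-2.43 ± 0.09). Cd3e (-0.94 ± 0.08), Cd3g (-0.87 ± 0.07), Cd4 (-0.91 ± 0.08), Thy1 (-1.65 ± 0.08) and Cd2 (-0.80 ± 0.08) fell by smaller amounts, as did Cd6, Ptprc, Lck and the copy gene Cd247. The costimulatory receptor gene Cd28 went the other way, at 2736 and 2505 CPM in the Th17 libraries, against 1164 and 1009 CPM in the naive libraries (1.27 ± 0.09), and so did the kinase gene Zap70 (0.53 ± 0.08). Cd3d (-0.0084 ± 0.09), Cd5 (-0.074 ± 0.07), Lat (-0.13 ± 0.08) and Bcl11b (0.085 ± 0.09) did not pass, although without naive replicate 1 Lat and Bcl11b did (-0.24 and 0.27). Among naive-cell genes 2 of 31 tested members rose and 24 fell, with a median of -1.14. Those with the largest falls were Dapl1, Pdlim4, Ms4a4b, Klf6, Klf3 and Klf2, with Ms4a4b at 12.2 and 18.2 CPM in the Th17 libraries, against 289 and 219 CPM in the naive libraries. The IL-7 receptor gene Il7r changed by -2.15 ± 0.08, and both chains of the IL-6 receptor fell (-1.73 ± 0.09 for Il6ra and -1.83 ± 0.08 for Il6st). The stemness factor gene Tcf7 did not pass (-0.091 ± 0.08, adjusted p = 0.325).

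**Figure D2:**
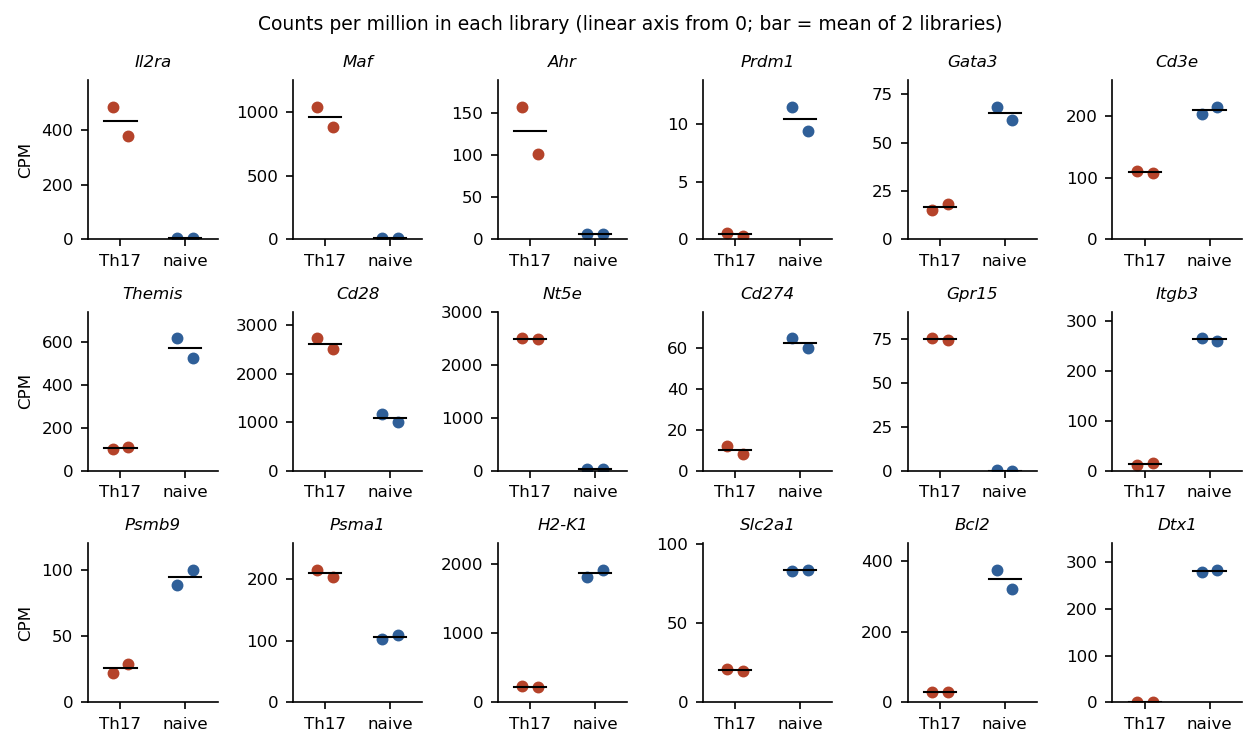
CPM of 18 genes in each library on linear axes from 0, Th17 (red) left of naive (blue); each point is a library and the bar is the mean of 2. In each panel the groups do not overlap, from Il2ra near 0 in naive to Dtx1 near 0 in Th17. The Th17 points of a panel can lie apart, as in Ahr.

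Among the genes that came on from no naive counts, several have no textbook place in T cell polarization. Atp6v0d2 encodes an alternative subunit of the vacuolar proton pump, known from osteoclasts and macrophages, and had 279 and 246 CPM in the Th17 libraries, against no counts in either naive library. Peli2, an E3 ligase gene of the IL-1 and Toll receptor pathways, had 250.1 and 206 CPM in the Th17 libraries, against no counts in either naive library. Cyp11a1, whose enzyme makes pregnenolone from cholesterol, was at 84.8 and 69.2 CPM in the Th17 libraries, against no counts in either naive library (at least 378-fold higher). These 3 genes were well expressed in Th17 and had no counts in the 2 naive libraries together. The gap junction genes Gja1 and Gja5, for connexin 43 and connexin 40, came on together, Gja1 at 67.3 and 47.1 CPM in Th17, against no counts in either naive library (at least 282-fold higher) and Gja5 at 44.8 and 32.6 CPM in Th17, against no counts in either naive library (at least 191-fold higher). The stress-response metallothionein gene Mt2 (at least 430.4-fold higher) and the STAT5 feedback gene Socs2 (at least 254-fold higher) belong to the copy genes. Other genes with the largest rises were Rnf152, an E3 ligase gene of the lysosome (at least 183-fold higher), and Sh3pxd2b, an adaptor gene of invasive membrane structures (at least 164-fold higher). In the opposite direction, Chrm3, a muscarinic acetylcholine receptor gene (at least 28.3-fold lower), Chrne, a nicotinic receptor subunit gene (at least 25.8-fold lower), and Cd177 (at least 23.3-fold lower) had no counts in Th17 and few in naive, and Chrm3 did not pass with DESeq2 (-7.86, adjusted p = 0.138). Dtx1, a Notch regulator that promotes T cell anergy, was at 1.60 and 1.35 CPM in the Th17 libraries, against 278 and 283 CPM in the naive libraries (-7.55 ± 0.14), and Trat1, a transmembrane adaptor gene of the antigen receptor, at 0.760 and 1.26 CPM in the Th17 libraries, against 123 and 122 CPM in the naive libraries (-6.93 ± 0.19). Both were abundant in naive cells and almost lost in the cultures.

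Of chemokine and lipid homing receptors 12 of 19 tested members rose and 7 fell. Gpr15, which guides T cells to the large intestine, was at 75.5 and 74.5 CPM in the Th17 libraries, against 0.299 and 0 CPM in the naive libraries (a ratio of 548, counting interval 151 to 4527). Cxcr6 (5.55 ± 0.27), Cxcr5, the receptor that leads to B cell follicles (5.09 ± 0.15), Ccr4 (4.90 ± 0.18) and the prostaglandin E2 receptor gene Ptger2 (4.42 ± 0.21) rose too. Among those that fell, Gpr183, a receptor for oxysterols, was at 48.8 and 37.1 CPM in the Th17 libraries, against 659 and 609 CPM in the naive libraries (-3.88 ± 0.10), Ccr9 at 0.422 and 0.290 CPM in the Th17 libraries, against 11.6 and 11.8 CPM in the naive libraries (-4.97 ± 0.37), and Cxcr4 changed by -1.53 ± 0.09. The receptors for prostaglandin E2 moved apart, since Ptger4 fell (-0.87 ± 0.09) while Ptger2 rose. Among integrins and adhesion genes 9 of 21 tested members rose and 8 fell, close to the shares over all genes. Itgae, for the integrin chain that holds T cells in epithelium, was at 15.1 and 22.6 CPM in the Th17 libraries, against 0.149 and 1.01 CPM in the naive libraries (4.90 ± 0.37), and Itgb8, whose product frees active TGF-beta, had 4.05 and 7.54 CPM in the Th17 libraries, against no counts in either naive library. Itga3 (3.96 ± 0.15) and the activation marker Cd44 (1.62 ± 0.09) rose as well. Itgb3, the beta3 integrin gene, was at 11.1 and 15.2 CPM in the Th17 libraries, against 266 and 259.9 CPM in the naive libraries (-4.33 ± 0.12), and the chains of the gut-homing integrin, Itga4 (-2.80 ± 0.11) and Itgb7 (-1.02 ± 0.07), fell. Cd96 fell (-2.82 ± 0.10).

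Several cytokine receptor chains rose. Il2ra, the high-affinity chain, was at 487 and 379.5 CPM in the Th17 libraries, against 4.33 and 3.79 CPM in the naive libraries (6.74 ± 0.16), and Il2rb at 885 and 728 CPM in the Th17 libraries, against 32.6 and 37.9 CPM in the naive libraries (4.51 ± 0.11). Il12rb1, shared by the IL-12 and IL-23 receptors, rose by 4.50 ± 0.16, and Il18rap by 5.18 ± 0.42. Il17re, a receptor chain for IL-17C, rose as well, at a ratio of 206, counting interval 56.9 to 1708. In the whole list of receptor chains 8 of 26 tested members rose and 10 fell, close to the shares over all genes. Those that fell included Il21r (-2.03 ± 0.10), Il27ra (-1.95 ± 0.09), Il10ra (-1.59 ± 0.14) and Il4ra (-1.21 ± 0.08). Il21, the ligand of Il21r, moved the opposite way to its receptor gene, at 229 and 176 CPM in the Th17 libraries, against 0.149 and 0.126 CPM in the naive libraries. Among secreted ligands 11 of 21 tested members rose and 8 fell, and at a filter of 5 CPM in 2 libraries 7 rose and 8 fell. In the TNF family Tnfsf4, for OX40 ligand (a ratio of 37.97, counting interval 12.8 to 186), and Tnfsf14, for LIGHT (3.29 ± 0.37), rose, whereas Fasl (-4.06 ± 0.19), Tnfsf8 (-3.20 ± 0.20), Tnfsf10, for TRAIL (-2.79 ± 0.15), Tnfsf11, for RANK ligand (-2.49 ± 0.14), and Cd40lg (-2.46 ± 0.12) fell. Cd40lg was at 17.9 and 15.3 CPM in the Th17 libraries, against 96.3 and 87.5 CPM in the naive libraries. Its receptor gene Cd40, better known from B cells and dendritic cells, had 35.04 and 31.3 CPM in the Th17 libraries, against no counts in either naive library. Csf1, the macrophage growth factor gene, rose by 4.42 ± 0.22, and the chemokine gene Ccl4 was at 21.8 and 19.7 CPM in Th17, against 0 and 0.126 CPM in naive (a ratio of 304, counting interval 54.3 to 12041).

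Several inhibitory receptor genes rose and others fell. Lag3, a receptor for MHC class II, was at 52.01 and 54.3 CPM in the Th17 libraries, against 0.149 and 0.253 CPM in the naive libraries (a ratio of 259, counting interval 88.3 to 1256), Pdcd1, for PD-1, at 71.4 and 79.9 CPM in the Th17 libraries, against 4.48 and 5.56 CPM in the naive libraries (3.90 ± 0.14), and Ctla4 at 805 and 752 CPM in the Th17 libraries, against 111 and 129 CPM in the naive libraries (2.70 ± 0.09). The ectoenzyme genes Cd38 (6.38 ± 0.33) and Entpd1, for CD39 (4.39 ± 0.46), rose together with Nt5e, the CD73 gene described above, whose product acts after CD39 in the path from ATP to adenosine. The PD-1 ligand gene Cd274 was at 11.99 and 8.22 CPM in the Th17 libraries, against 64.96 and 60.3 CPM in the naive libraries (-2.62 ± 0.15), and Btla changed by -1.09 ± 0.09. In the list 9 of 18 tested members rose and 7 fell, and Havcr2 had too few counts for a test. Among costimulatory and TNF receptors 12 of 21 tested members rose and 7 fell. Tnfrsf8, the CD30 gene, had 22.5 and 17.9 CPM in the Th17 libraries, against no counts in either naive library, and Tnfrsf13b, a receptor for BAFF and APRIL, rose by 3.38 ± 0.17. Cd226, the activating counterpart of the TIGIT receptor, was at 1.35 and 3.09 CPM in the Th17 libraries, against 120.4 and 110.0 CPM in the naive libraries (-5.72 ± 0.20), and Cd69, the early activation marker, changed by -3.07 ± 0.09.

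Signalling downstream of the antigen receptor changed in both directions. In the antigen receptor list 13 of 35 tested members rose and 20 fell. Spry1, a brake on Ras signalling (3.77 ± 0.14), Ubash3b, a phosphatase gene (2.57 ± 0.09), and Malt1, the protease that links the receptor to NF-kB (1.81 ± 0.09), rose. Rasgrp1, the activator of Ras in T cells (-2.27 ± 0.09), and Pag1, a membrane adaptor that recruits the kinase CSK (-2.41 ± 0.10), fell. Among channels and pumps of calcium and potassium 9 of 20 tested members rose and 10 fell, a balance that evened out or turned under several alternatives. The calcium export pump gene Atp2b4 was at 189 and 142 CPM in the Th17 libraries, against 3.29 and 2.78 CPM in the naive libraries (5.77 ± 0.20). Of the 3 inositol trisphosphate receptors that release calcium from stores, Itpr3 rose (0.76 ± 0.08) while Itpr1 (-1.27 ± 0.08) and Itpr2 (-2.68 ± 0.09) fell. The potassium channel gene Kcna2 fell (-4.88 ± 0.43).

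AP-1 and other immediate early genes were low in the cultures: 3 of 28 tested members rose and 24 fell, with a median of -1.98. Fos was at 48.1 and 41.5 CPM in the Th17 libraries, against 1055 and 945 CPM in the naive libraries (-4.48 ± 0.10), and Jun at 79.3 and 64.98 CPM in the Th17 libraries, against 1259 and 1219 CPM in the naive libraries (-4.10 ± 0.11). Ppp1r15a, a stress phosphatase subunit gene, was at 18.2 and 17.02 CPM in the Th17 libraries, against 1127 and 1176 CPM in the naive libraries (-6.03 ± 0.10), and the MAP kinase phosphatase gene Dusp5 at 5.99 and 3.77 CPM in the Th17 libraries, against 363 and 401 CPM in the naive libraries (-6.27 ± 0.14). Egr2 (1.41 ± 0.12) and Egr3 (0.78 ± 0.18), which restrain T cell responses, rose against the rest. The same direction was seen in a list of genes known to be induced while tissue is dissociated, which shares members with the immediate early list and in which 1 of 10 tested members rose and 9 fell, with a summed level of 648 and 642 CPM in Th17, against 4521 and 4299 CPM in naive. Its part in the fall of the immediate early genes was not tested. Among NF-kB subunits and feedback genes 3 of 22 tested members rose and 16 fell, with a median of -0.72. Nfkbia, for the inhibitor IkBa, was at 79.4 and 73.5 CPM in the Th17 libraries, against 293 and 282 CPM in the naive libraries (-1.91 ± 0.08), Nfkbid changed by -2.08 ± 0.11, and Rel, the T cell subunit c-Rel, by -1.61 ± 0.12. Nfkb1 (0.38 ± 0.08) and Bcl3 (1.17 ± 0.12) rose.

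Promoters of 2 of these groups are shown for the element that names their regulators. The kappa B site, GGGA and TTTCC set 1 base apart, was found in 4 of 20 promoters of the NF-kB list members that fell, against 0.426% of the promoters of tested genes, and the cyclic AMP response element TGACGTCA in 3 of 24 promoters of the immediate early members that fell, against 3.20%. Each sequence runs from 250 bases before to 50 bases after the start, from RefSeq on build GRCm38.p6, and capitals mark the matches.
Nfkbia, chr12:55492598-55492897, minus strand: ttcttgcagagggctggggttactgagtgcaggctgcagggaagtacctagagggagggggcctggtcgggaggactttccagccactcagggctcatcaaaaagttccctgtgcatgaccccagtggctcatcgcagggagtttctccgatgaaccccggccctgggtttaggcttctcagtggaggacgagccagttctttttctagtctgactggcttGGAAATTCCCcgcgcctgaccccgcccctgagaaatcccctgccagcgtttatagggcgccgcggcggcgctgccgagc
Ppp1r15a, chr7:45526219-45526518, minus strand: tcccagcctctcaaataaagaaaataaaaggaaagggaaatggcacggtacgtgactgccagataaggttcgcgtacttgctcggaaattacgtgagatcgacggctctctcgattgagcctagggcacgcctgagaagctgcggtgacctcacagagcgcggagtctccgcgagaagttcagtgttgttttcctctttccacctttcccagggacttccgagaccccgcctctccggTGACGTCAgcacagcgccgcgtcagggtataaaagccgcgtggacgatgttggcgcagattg

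The TGF-beta pathway showed a mixed response of its feedback genes. Smad6 was at 21.9 and 17.5 CPM in the Th17 libraries, against 0 and 0.379 CPM in the naive libraries (a ratio of 96.6, counting interval 32.8 to 470.1), and its relative Smad7, the better known feedback inhibitor, at 224 and 207 CPM in the Th17 libraries, against 666 and 549.7 CPM in the naive libraries (-1.50 ± 0.09). Pmepa1 (4.13 ± 0.12) and Ldlrad4 (2.83 ± 0.09), both of which restrain SMAD activation, rose, whereas Bambi, the gene of a decoy receptor, fell (-4.78 ± 0.21). The type I receptor gene Tgfbr1 rose (1.83 ± 0.10) and the type II receptor gene Tgfbr2 fell (-0.83 ± 0.08). In the whole list 15 of 26 tested members rose and 7 fell. Targets of STAT3 had no shared direction: 6 of 17 tested members rose and 8 fell. Socs3, the feedback inhibitor of IL-6 signalling, rose by 1.24 ± 0.08, and Fgl2 by 5.20 ± 0.33, while the kinase gene Pim1 (-1.99 ± 0.08) and Cebpb (-3.09 ± 0.19) fell. In the aryl hydrocarbon receptor battery 7 of 10 tested members rose and 2 fell. Its repressor gene Ahrr had 101 and 71.7 CPM in the Th17 libraries, against no counts in either naive library (at least 426-fold higher), Cyp1a1, the classical target, was at 172 and 135 CPM in the Th17 libraries, against 0 and 0.379 CPM in the naive libraries (a ratio of 754, counting interval 258 to 3657), and Cyp1b1 had 36.4 and 24.9 CPM in the Th17 libraries, against no counts in either naive library. These 3 genes were close to silent in naive cells, and Th17 replicate 1 was the higher library in each, as it was for Ahr.

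Interferon-response genes fell without exception among those tested: 0 of 34 tested members rose and 34 fell, with a median of -2.73. Irf7, the interferon-inducible factor, was at 5.99 and 6.58 CPM in the Th17 libraries, against 110.4 and 137 CPM in the naive libraries (-4.30 ± 0.14). Ifit1, an antiviral RNA-binding gene, was at 1.77 and 3.09 CPM in the Th17 libraries, against 64.96 and 59.3 CPM in the naive libraries (-4.69 ± 0.19), Isg20 changed by -4.53 ± 0.32 and Oas3 by -4.34 ± 0.24. Oas2 (at least 240.5-fold lower), Rsad2 (at least 123-fold lower) and Ifi44 (at least 36.96-fold lower) had no counts in Th17, and Ifi44 did not pass with DESeq2 (-8.25, adjusted p = 0.129). The guanylate-binding gene Gbp2, also inducible by interferon but not in this list, rose as given above, while Gbp8 fell (-6.76 ± 0.26). The interferon-stimulated response element, TTTC repeated after 2 further bases, was found in 12 of 29 promoters of these members, or 41.4%, against 3.04% of promoters of all tested genes. The promoters of 2 members that hold it are shown, with the matches in capitals.
Rsad2, chr12:26456403-26456702, minus strand: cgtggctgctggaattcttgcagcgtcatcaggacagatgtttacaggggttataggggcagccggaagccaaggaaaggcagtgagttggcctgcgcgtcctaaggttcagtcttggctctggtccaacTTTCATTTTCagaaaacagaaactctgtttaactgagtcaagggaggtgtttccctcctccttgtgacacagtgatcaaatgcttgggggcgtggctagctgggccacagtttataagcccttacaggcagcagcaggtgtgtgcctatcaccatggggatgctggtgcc
Ifit1, chr19:34640639-34640938, plus strand: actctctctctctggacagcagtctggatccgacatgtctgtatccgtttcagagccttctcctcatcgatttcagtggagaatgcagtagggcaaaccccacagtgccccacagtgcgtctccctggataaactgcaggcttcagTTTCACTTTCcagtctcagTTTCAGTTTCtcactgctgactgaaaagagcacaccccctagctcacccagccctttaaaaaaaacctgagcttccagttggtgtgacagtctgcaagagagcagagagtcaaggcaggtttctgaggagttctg

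MHC class I and its supply of peptides fell too. In the antigen presentation list 1 of 19 tested members rose and 16 fell, with a median of -1.66. The count that rose changed under some alternatives. H2-K1 was at 237 and 219 CPM in the Th17 libraries, against 1804 and 1918 CPM in the naive libraries (-3.03 ± 0.08), H2-D1 at 156 and 151 CPM in the Th17 libraries, against 818 and 889 CPM in the naive libraries (-2.47 ± 0.08), and B2m, the shared light chain, at 834 and 816 CPM in the Th17 libraries, against 3559 and 2794 CPM in the naive libraries (-1.94 ± 0.10). Nlrc5, the factor that drives class I genes, was at 28.4 and 31.1 CPM in the Th17 libraries, against 385 and 427 CPM in the naive libraries (-3.77 ± 0.09), and the peptide transporter genes Tap1 (-1.66 ± 0.09) and Tap2 (-1.36 ± 0.08) fell. The proteasome split along the same line. The inducible catalytic subunits fell, with Psmb9 at 22.4 and 28.9 CPM in the Th17 libraries, against 88.4 and 100.1 CPM in the naive libraries (-1.89 ± 0.12), Psmb10 at a log2 fold change of -1.31 ± 0.11 and Psmb8 of -0.71 ± 0.09, and so did the interferon-inducible activators Psme1 (-0.96 ± 0.08) and Psme2. In the whole proteasome list 20 of 31 tested members rose and 6 fell, with 12 risen without naive replicate 1 and 13 without Th17 replicate 1. The constitutive counterparts of these subunits moved otherwise: Psmb7 rose (0.41 ± 0.08), and Psmb6 did not pass (0.09 ± 0.09) except without naive replicate 2 (0.23). Psmb5, a copy gene, rose (0.97 ± 0.32) but did not pass without naive replicate 1 (0.78). Psma1 (0.98 ± 0.08), Psmd1 (0.80 ± 0.08) and the activator gene Psme4 (0.72 ± 0.08) rose. Without copy genes 17 of 23 rose and 4 fell. In the GIMAP and Schlafen families 2 of 14 tested members rose and 8 fell, and with DESeq2 1 rose. Slfn8 was at 5.23 and 5.80 CPM in the Th17 libraries, against 132 and 118 CPM in the naive libraries (-4.50 ± 0.13).

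**Figure D3:**
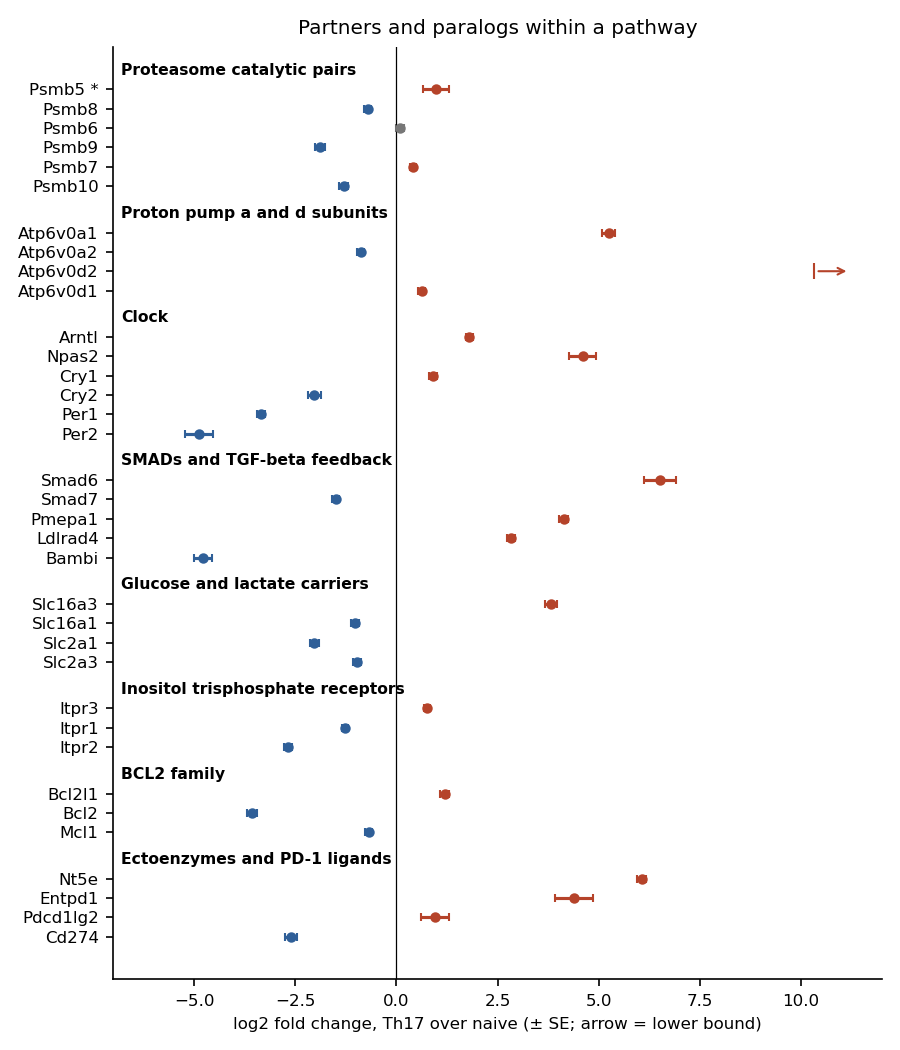
Log2 fold changes, Th17 over naive, with standard errors, for partner and paralog genes grouped by pathway; red points rose, blue points fell, grey did not pass, the star marks a copy gene and the arrow a lower bound, and the fitted value of Smad6 rests on 3 naive counts. Partners lie on opposite sides of 0 in most of the groups drawn, such as Psmb7 against Psmb10, Smad6 against Smad7, Arntl against Per1 and Slc16a3 against Slc16a1. Paralogs that moved apart were picked for naming, so the figure gives no measure of how common such splits are.

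Genes of dividing cells were high in the cultures. In the mitosis list 45 of 47 tested members rose and 2 fell, with a median of 5.09. Ube2c, which tags cyclins for destruction, was at 74.6 and 69.6 CPM in the Th17 libraries, against 0.448 and 0.253 CPM in the naive libraries (7.67 ± 0.22), and Cdk1, the mitotic kinase, changed by 6.12 ± 0.17. Ttk (a ratio of 462, counting interval 82.6 to 18257), Nuf2 (7.12 ± 0.25) and Tpx2 (6.89 ± 0.21), genes of the spindle and its checkpoint, were close to silent in naive cells. Against the list, the securin gene Pttg1 was at 9.71 and 9.48 CPM in the Th17 libraries, against 37.5 and 43.4 CPM in the naive libraries (-2.08 ± 0.15), and the condensin gene Smc4 fell (-0.72 ± 0.09). DNA replication genes rose with a smaller median, 1.29: 32 of 44 tested members rose and 3 fell, and without copy genes 25 of 35 rose and 2 fell. Mcm10 was at 23.9 and 26.8 CPM in the Th17 libraries, against 0.149 and 0.758 CPM in the naive libraries (5.69 ± 0.31), Rrm2, the ribonucleotide reductase subunit gene, at 103 and 103 CPM in the Th17 libraries, against 6.42 and 6.57 CPM in the naive libraries (3.99 ± 0.14), and Mcm6, part of the replicative helicase, at 729 and 735 CPM in the Th17 libraries, against 125 and 115 CPM in the naive libraries (2.61 ± 0.09). The clamp gene Pcna fell by count (-0.98 ± 0.11) but was at 5.50 and 5.16 RPKM in the Th17 libraries, against 3.37 and 3.79 RPKM in the naive libraries, so its direction differed between the deposited tables. Pold2 (-1.03 ± 0.15) and Cdt1 (-0.48 ± 0.10) fell and have no copies.

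Regulators of the G1 phase were rearranged. In the list 18 of 29 tested members rose and 7 fell. The repressive factors E2f7 (5.09 ± 0.31) and E2f8 (6.40 ± 0.25) rose together with Mxd3 (5.16 ± 0.31), a partner of MAX that opposes MYC. E2f8 was at 40.8 and 42.4 CPM in the Th17 libraries, against 0.448 and 0.506 CPM in the naive libraries. Cdk6 rose by 2.95 ± 0.15 and Ccne2, the S-phase cyclin gene, by 2.34 ± 0.16. The D-type cyclin gene Ccnd2 was at 145 and 143 CPM in the Th17 libraries, against 349.6 and 322 CPM in the naive libraries (-1.22 ± 0.08). Myc itself, at 71.2 and 55.99 CPM in Th17, against 65.6 and 68.9 CPM in naive, did not pass (adjusted p = 0.523), and without Th17 replicate 1 it lay just past the threshold (-0.27, adjusted p = 0.0498). Rad51ap1, a gene of homologous recombination, was at 51.00 and 44.7 CPM in the Th17 libraries, against 0.597 and 0.885 CPM in the naive libraries (5.97 ± 0.23), and Brca1 changed by 3.14 ± 0.15. In the repair list 19 of 31 tested members rose and 6 fell. The checkpoint kinase genes Atm (-1.45 ± 0.09) and Atr (-1.42 ± 0.09) fell, while their targets Chek1 (3.03 ± 0.22) and Chek2 (2.16 ± 0.20) rose. Of clustered histone genes, whose transcripts mostly lack poly(A) tails, 19 of 21 tested members rose and 0 fell. Of these 14 are copy genes, and without them 6 of 7 rose and 0 fell.

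Promoters of these groups carried cell cycle elements. The E2F motifs TTCCCGCC, TTTGGCGC and TTTCGCGC were present in 13 of 30 promoters of risen replication genes, or 43.3%, and in 3 of 9 promoters of members that did not pass, against 5.65% of promoters of all tested genes. The CHR element, TTTGAA or TTCGAA, and the CCAAT box were each present in 32 of 41 promoters of risen mitosis genes, or 78.0%, against 13.6% and 37.6% of all. Over all genes at least 2-fold higher the shares were 5.43% for E2F and 15.6% for CHR, close to those of all tested genes. Promoters of members that hold each motif are shown, with the E2F motifs in capitals in Chaf1a and Mcm6, where matches on opposite strands overlap in Mcm6, the CHR element in capitals in Ttk, and the CCAAT boxes of either strand in capitals in Ube2c.
Chaf1a, chr17:56040166-56040465, plus strand: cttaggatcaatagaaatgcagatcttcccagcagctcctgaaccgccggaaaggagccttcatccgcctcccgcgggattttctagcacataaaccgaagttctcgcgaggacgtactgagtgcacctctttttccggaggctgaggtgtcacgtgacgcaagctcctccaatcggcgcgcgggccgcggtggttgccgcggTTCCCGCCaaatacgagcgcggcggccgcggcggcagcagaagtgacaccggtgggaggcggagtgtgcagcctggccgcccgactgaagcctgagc
Mcm6, chr1:128359656-128359955, minus strand: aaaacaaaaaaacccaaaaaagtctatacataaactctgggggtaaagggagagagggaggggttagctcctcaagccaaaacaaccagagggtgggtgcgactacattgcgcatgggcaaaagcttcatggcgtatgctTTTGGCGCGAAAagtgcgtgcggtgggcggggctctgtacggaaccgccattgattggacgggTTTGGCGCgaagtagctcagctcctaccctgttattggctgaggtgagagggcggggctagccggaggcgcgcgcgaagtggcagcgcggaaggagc
Ttk, chr9:83834439-83834738, plus strand: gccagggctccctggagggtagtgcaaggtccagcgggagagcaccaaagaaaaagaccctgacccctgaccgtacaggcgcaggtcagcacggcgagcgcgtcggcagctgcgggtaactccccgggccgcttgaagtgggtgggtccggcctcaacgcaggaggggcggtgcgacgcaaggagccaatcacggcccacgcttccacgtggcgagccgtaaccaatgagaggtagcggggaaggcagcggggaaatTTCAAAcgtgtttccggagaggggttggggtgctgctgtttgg
Ube2c, chr2:164769679-164769978, plus strand: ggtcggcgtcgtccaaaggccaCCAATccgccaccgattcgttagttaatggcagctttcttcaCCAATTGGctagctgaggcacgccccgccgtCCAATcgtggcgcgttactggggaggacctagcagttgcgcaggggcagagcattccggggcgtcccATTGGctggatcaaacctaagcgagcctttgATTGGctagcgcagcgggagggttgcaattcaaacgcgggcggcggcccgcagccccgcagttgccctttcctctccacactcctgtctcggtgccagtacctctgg

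Growth genes did not follow the division genes. In the ribosome biogenesis list 2 of 35 tested members rose and 27 fell, with a median of -0.77. Gnl3, for nucleostemin, was at 39.1 and 31.1 CPM in the Th17 libraries, against 116 and 121 CPM in the naive libraries (-1.75 ± 0.11), Rrp9 changed by -1.63 ± 0.12 and the RNA polymerase I subunit gene Polr1b by -1.01 ± 0.11. Wdr12 (1.28 ± 0.11) and Ubtf, a factor of ribosomal RNA transcription (0.92 ± 0.08), rose. Of 48 ribosomal protein genes 0 rose and 38 fell, but 42 of them are copy genes, and of the other 6 tested genes 3 fell and 0 rose. Without Th17 replicate 2, 1 of the 48 rose. In the mTORC1 list 10 of 23 tested members rose and 9 fell, a balance that evened out or turned under several alternatives. Those that rose included sensors and inhibitors of the pathway: Sesn3 was at 996 and 972 CPM in the Th17 libraries, against 213 and 189 CPM in the naive libraries (2.29 ± 0.08), Sesn1 rose by 1.62 ± 0.08, Ddit4 by 1.70 ± 0.09 and Rragd, a lysosomal GTPase gene, by 3.16 ± 0.12. Pik3cd, the PI3 kinase subunit of lymphocytes, fell (-1.53 ± 0.09). Among amino acid carriers and ATF4 targets 14 of 29 tested members rose and 9 fell. Atf4 was at 167 and 152 CPM in the Th17 libraries, against 613 and 688 CPM in the naive libraries (-2.03 ± 0.08), and the carrier genes Slc7a1 (-1.42 ± 0.09) and Slc3a2 (-1.30 ± 0.08) fell, while Asns (4.82 ± 0.34), Bcat1 (4.93 ± 0.30) and Slc1a4 (2.89 ± 0.23) rose.

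Glycolysis genes changed isoform by isoform. In the list 13 of 24 tested members rose and 8 fell, and without copy genes 10 of 18 rose and 7 fell. Eno2 (5.08 ± 0.31), Aldoc (3.92 ± 0.22), Hk2 (2.59 ± 0.29) and Tpi1 (2.59 ± 0.12) rose, Aldoc at 69.2 and 44.7 CPM in the Th17 libraries, against 3.29 and 4.17 CPM in the naive libraries. The lactate exporter gene Slc16a3 was at 77.6 and 72.7 CPM in the Th17 libraries, against 4.33 and 6.19 CPM in the naive libraries (3.82 ± 0.14). The glucose carrier gene Slc2a1 was at 21.02 and 19.7 CPM in the Th17 libraries, against 82.7 and 83.7 CPM in the naive libraries (-2.03 ± 0.11), with every Th17 value under every naive value, and Slc2a3 (-0.98 ± 0.09), Slc16a1 (-1.02 ± 0.09) and Pdk1 (-1.34 ± 0.07) fell too. Hif1a, an upstream factor of many glycolytic genes, rose (1.76 ± 0.10), and its target Egln3 was at 229 and 189 CPM in the Th17 libraries, against 5.23 and 2.78 CPM in the naive libraries (5.73 ± 0.17). In the whole list of hypoxia targets 7 of 16 tested members rose and 3 fell, with a median of 0.063. Without copy genes 5 of 13 rose and 3 fell, with a median of -0.099. With DESeq2, 1 member of the list fell. Among nuclear oxidative phosphorylation genes 15 of 38 tested members rose and 2 fell, or 1 without either naive or Th17 replicate 2, with a median of 0.14. Mitochondrial RNA took 15.7 and 16.0% of reads in the Th17 libraries, against 11.98 and 9.87% in naive. In the list of the citric acid cycle and pyruvate entry 13 of 30 tested members rose and 5 fell, with a median of 0.13. With DESeq2, 3 fell. Among the risen members, Idh1 changed by 3.00 ± 0.12. In nucleotide synthesis 8 of 26 tested members rose and 12 fell, with Umps (1.19 ± 0.08) and Dut (1.38 ± 0.10) up and Impdh1 (-1.79 ± 0.10) down.

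Genes of sterol synthesis rose: 26 of 29 tested members rose and 2 fell, with a median of 0.98. Mvd, an enzyme gene of the mevalonate path, was at 60.7 and 51.4 CPM in the Th17 libraries, against 13.1 and 14.5 CPM in the naive libraries (2.02 ± 0.12), and Cyp51, which demethylates lanosterol, changed by 1.91 ± 0.09. The genes that fell act in removal: Mylip, which degrades the LDL receptor, was at 24.2 and 26.1 CPM in the Th17 libraries, against 155 and 137 CPM in the naive libraries (-2.54 ± 0.10), and Abcg1, which exports sterol, changed by -0.75 ± 0.08. The sterol regulatory element TCACNCCAC was found in 0 of 26 promoters of the members that rose, against 1.12% of all promoters, which says only that these letters are not in the window. Among fatty acid genes 20 of 29 tested members rose and 6 fell. Desaturase genes led, with Fads2 at 24.99 and 20.2 CPM in the Th17 libraries, against 0 and 0.126 CPM in the naive libraries, Scd1 at 47.2 and 31.7 CPM in the Th17 libraries, against 0.747 and 1.01 CPM in the naive libraries (5.46 ± 0.34). Fads1 rose by 2.50 ± 0.11, and Acss2, which makes acetyl-CoA from acetate, fell (-2.12 ± 0.10). Steroid enzymes had no common direction: beside Cyp11a1, Hsd11b1, which reactivates glucocorticoids, was at 10.98 and 7.35 CPM in the Th17 libraries, against 109 and 115 CPM in the naive libraries (-3.60 ± 0.15), and Star, for the cholesterol carrier upstream of CYP11A1, changed by -2.06 ± 0.30.

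Among genes of the proton pump and lysosome 19 of 28 tested members rose and 5 fell. The proton pump subunit gene Atp6v0a1 was at 93.4 and 83.5 CPM in the Th17 libraries, against 2.54 and 2.15 CPM in the naive libraries (5.24 ± 0.15) while its paralog Atp6v0a2 fell (-0.88 ± 0.09), and Lamp2 rose by 2.50 ± 0.09 and Ctsc by 1.95 ± 0.08. In the iron and haem list 9 of 17 tested members rose and 4 fell, with the haem synthesis gene Cpox at 349 and 263 CPM in the Th17 libraries, against 21.4 and 18.6 CPM in the naive libraries (3.94 ± 0.14), and the ferritin heavy chain gene Fth1 fell (-1.03 ± 0.08). In the heat shock list 4 of 22 tested members rose and 13 fell, and without copy genes 4 of 16 rose and 7 fell. Dnajb1 was at 100.1 and 97.4 CPM in the Th17 libraries, against 427 and 464 CPM in the naive libraries (-2.17 ± 0.08) and Hsph1 changed by -2.21 ± 0.10. The inducible Hspa1a and Hspa1b stand also in the dissociation list above, whose part was not tested. They are near-identical to each other, so only their joint fall can be read, Hspa1b being at 0.422 and 0.580 CPM in the Th17 libraries, against 266 and 197 CPM in the naive libraries. In the endoplasmic reticulum list 11 of 27 tested members rose and 13 fell, a balance that evened out or turned under several alternatives. Its sensor genes Atf6 (1.59 ± 0.10), Ern1 (0.94 ± 0.14) and Eif2ak3 (0.80 ± 0.08) rose. Hspa5, a chaperone gene, was at 423 and 378 CPM in the Th17 libraries, against 1669 and 1712 CPM in the naive libraries (-2.08 ± 0.08), and Dnajb9 (-3.14 ± 0.19) and Herpud1 (-2.06 ± 0.09) fell. The ER stress element, CCAAT and CCACG set 9 bases apart, was found in 6 of 11 promoters of the members that fell and 2 of 9 of those that rose, against 0.136% of all promoters. The Hspa5 promoter is shown with its match in capitals.
Hspa5, chr2:34771840-34772139, plus strand: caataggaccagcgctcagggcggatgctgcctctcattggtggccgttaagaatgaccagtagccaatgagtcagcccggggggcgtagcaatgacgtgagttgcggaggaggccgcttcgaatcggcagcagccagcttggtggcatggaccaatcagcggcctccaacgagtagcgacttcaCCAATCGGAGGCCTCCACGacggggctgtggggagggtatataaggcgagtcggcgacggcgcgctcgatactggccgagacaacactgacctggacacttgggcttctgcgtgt

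Further motifs were searched in lists of known targets. The heat shock element, 3 alternating GAA and TTC units set 2 bases apart, was found in 4 of 16 promoters of heat shock genes that fell, which belong to 2 genes, and in 1 of 5 promoters of members that did not pass, against 0.526% of all. The E-box CACGTG, bound by MYC, was found in 6 of 22 promoters of ribosome biogenesis genes that fell, or 27.3%, against 10.2%. The amino acid response element TTGCATCA, bound by ATF4, was found in 2 of 16 promoters of risen genes of the amino acid list and in 1 of 10 of those that fell, against 0.625%. Among 24 promoters of immediate early genes that fell, the CArG box of serum response factor and the AP-1 site TGANTCA were each found in 2, or 8.33%, against 1.30% and 4.81% of all. Among 6 promoters of those that rose, the CArG box was found in 4, or 66.7%, all of 1 gene, and the AP-1 site in 0. The STAT site TTCNNNGAA was found in 2 of 6 promoters of risen STAT3 targets and 0 of 9 promoters of those that fell, against 6.88%. These counts rest on few promoters.

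**Figure D4:**
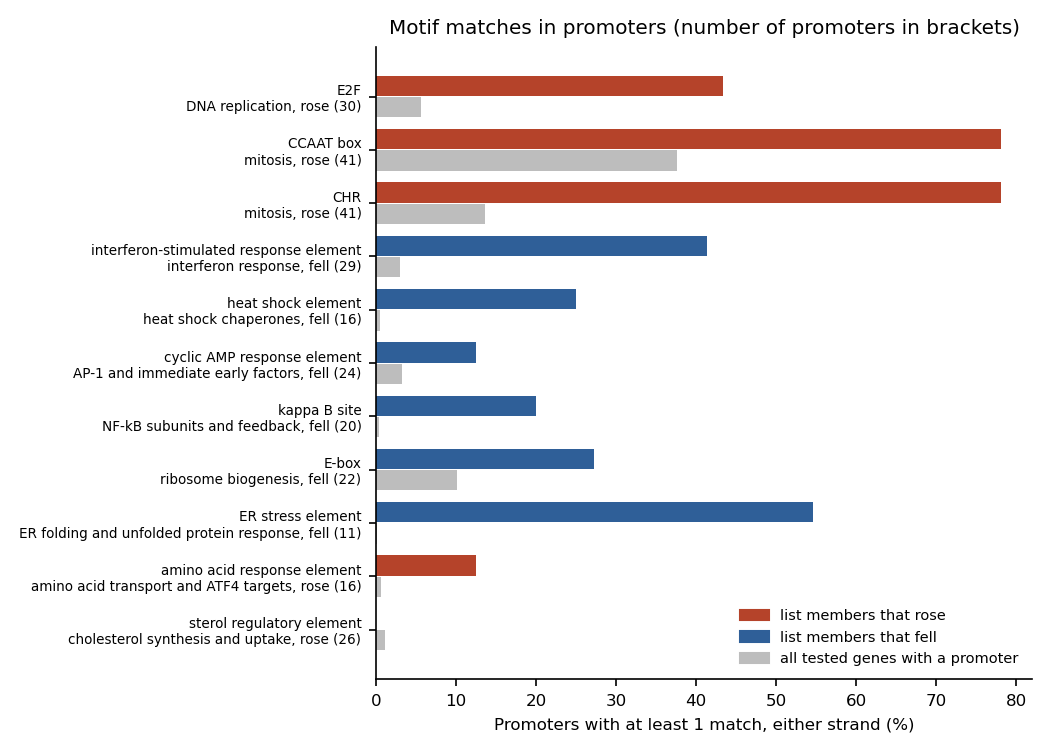
Share of promoters, 250 bases before to 50 after the start, with at least 1 motif match on either strand, for list members that rose (red) or fell (blue) and for all tested genes with a promoter (grey). Member bars are longer than grey bars for 10 of the 11 motifs drawn, and the sterol regulatory element has none among 26 promoters. The motifs and the direction drawn for each were chosen, from lists of known targets, and the STAT, AP-1, CArG and ROR motifs are not drawn.

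In the actin, tubulin and cell shape list 23 of 43 tested members rose and 13 fell. The tubulin isotype genes Tubb6 (a ratio of 106, counting interval 36.2 to 518) and Tubb3, a neuronal isotype (4.86 ± 0.34), rose beside the abundant Tubb5 (1.15 ± 0.09), and Anxa2 was at 143 and 120.0 CPM in the Th17 libraries, against 4.93 and 4.80 CPM in the naive libraries (4.76 ± 0.14). Coro1a (-0.54 ± 0.09) and Ezr (-0.89 ± 0.07), genes of the cortical actin of T cells, fell. In the chromatin list 16 of 41 tested members rose and 16 fell. Ezh2, the Polycomb methyltransferase gene, was at 151 and 145 CPM in the Th17 libraries, against 39.4 and 42.2 CPM in the naive libraries (1.86 ± 0.09), and Kdm6b, a demethylase of the same histone mark, at 11.3 and 12.8 CPM in the Th17 libraries, against 129 and 146 CPM in the naive libraries (-3.52 ± 0.13). Tet1, which oxidizes methylated cytosine, fell (-2.97 ± 0.14). The RNA-degrading regnase genes parted, with Zc3h12a at 10.5 and 12.96 CPM in the Th17 libraries, against 86.5 and 91.8 CPM in the naive libraries (-2.93 ± 0.13) and Zc3h12d at 334 and 345 CPM in the Th17 libraries, against 61.8 and 64.7 CPM in the naive libraries (2.42 ± 0.09). In the list of nuclear receptors and clock genes 8 of 29 tested members rose and 13 fell. The activators Arntl (1.80 ± 0.09) and Npas2 (4.60 ± 0.34) rose, and of the repressors Per1 was at 25.8 and 29.1 CPM in the Th17 libraries, against 268 and 291 CPM in the naive libraries (-3.35 ± 0.09), Per2 changed by -4.88 ± 0.35 and Cry2 by -2.03 ± 0.17, while Cry1 rose (0.90 ± 0.11). The time of day of collection is not stated.

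Among apoptosis regulators 12 of 21 tested members rose and 7 fell, and without Th17 replicate 1 the number that fell was 4. Bcl2, which keeps naive T cells alive, was at 28.96 and 29.5 CPM in the Th17 libraries, against 376 and 320.2 CPM in the naive libraries (-3.57 ± 0.13), and its relative Bcl2l1, for BCL-XL, at 56.9 and 52.1 CPM in the Th17 libraries, against 22.3 and 25.3 CPM in the naive libraries (1.19 ± 0.12). Mcl1 fell (-0.69 ± 0.08), and the pro-death genes Bmf (2.46 ± 0.18) and Pmaip1 (1.57 ± 0.12) rose. In the Notch and Wnt list 8 of 21 tested members rose and 11 fell, with the corepressor gene Tle1 up (2.38 ± 0.10) and Axin2, a feedback gene of beta-catenin, down (-1.16 ± 0.10), although Ctnnb1 itself rose. Prf1, for perforin, was at 2.11 and 2.61 CPM in the Th17 libraries, against 50.6 and 51.3 CPM in the naive libraries (-4.43 ± 0.18), while the cathepsin gene Ctsw, which T and NK cells express, was at 235 and 243 CPM in the Th17 libraries, against 39.1 and 52.96 CPM in the naive libraries (2.36 ± 0.11) and the NK receptor gene Klrd1 rose (1.44 ± 0.11).

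**Figure D5:**
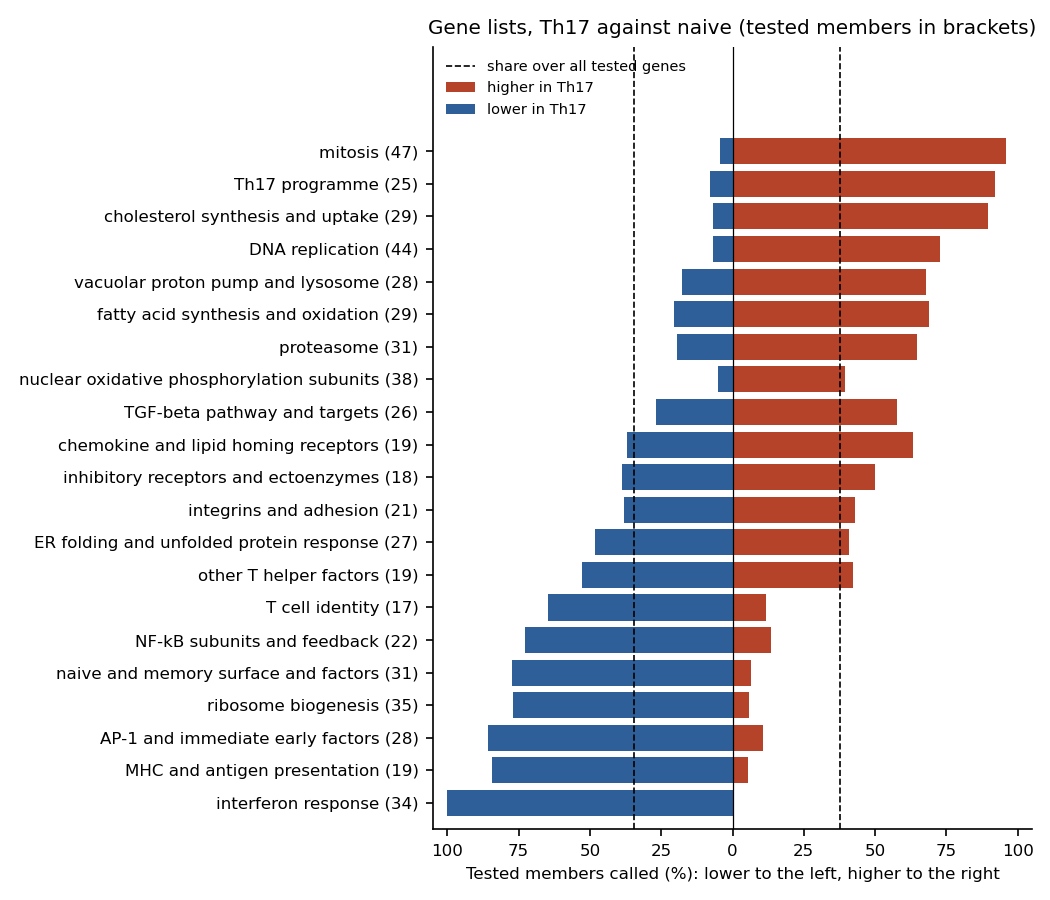
Share of tested members called higher in Th17 (red, to the right) or lower (blue, to the left) for 21 gene lists, with the number of tested members in brackets; dashed lines mark the shares over all tested genes, 37.8% and 34.4%. The interferon response lies wholly to the left and mitosis almost wholly to the right, while integrins, T helper factors and endoplasmic reticulum genes extend to both sides. The 21 lists were chosen from 65, so the figure gives no measure of how often lists depart from the dashed lines.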

How the data were processed

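RNA of the 8 samples was isolated with a Qiagen kit and made into libraries with an Illumina stranded mRNA kit, per the labels' protocols. Bowtie2, HTSeq and mouse build mm9 are named in the submitters' processing notes, without versions, annotation or strand setting in the sources used here. The authors deposited raw counts per gene, RPKM values, and a table of read numbers with the percent of reads on ribosomal and mitochondrial RNA. The 5 summary lines of the count table stayed out of library sizes and tests.

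Counts were fitted with edgeR 4.0.16 (R 4.3.3) in the quasi-likelihood model, with genes filtered by group, TMM factors, all 8 libraries and a mean per group, and the Th17 minus naive contrast adjusted by Benjamini-Hochberg at 0.05. The common biological coefficient of variation was 6.19% with 4 residual degrees of freedom. In simulated counts for this contrast over 11446 genes, 85.0% of genes changed 2-fold and 98.0% of genes changed 4-fold were called, against 0.1% of unchanged genes. The simulation changed only 100 genes by each amount and gave all genes a common spread. In the data 72.1% of genes passed, so these rates need not carry over. Replicates were separate libraries beyond sampling noise, with a chi-square per degree of freedom of 4.40 in Th17 and 5.86 in naive. Near-identical copies were found with minimap2 2.31-r1302 between GENCODE transcripts, and the 25% limit was chosen after seeing the data. Promoters came from RefSeq on GRCm38.p6, for 8644 of the 11629 tested genes, 11034 promoters in all, and both strands were searched.

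The members and the gene lists were chosen with earlier results of these data known. Named genes were those with the 15 largest gains and losses in CPM and the 15 largest rises and falls at 5 CPM or more. The 10 highest with no counts in the other group were named too. Per list, up to 6 risen and 6 fallen members at 5 CPM or more were taken. Members at 20 CPM or more against their list and opposed paralogs were added. The rules also took all members of the T cell identity, Th17, T helper and marker lists, but markers of other cells were mostly given as list sums. Named outside these rules, after their values were seen, were Ccne2, Cdk1, Chaf1a, Chek1, Chek2, Dnajb1, Havcr2, Il6ra, Il6st, Il7r, Irf7, Isg20, Mcm6, Myc, Oas3, Polr1b, Psmb5, Psmb6, Psmb7, Tap1, Tap2, Tcf7 and Tgfbr1. Alternatives were DESeq2 1.42.0, other scaling factors and filters, only the 4 libraries, a replicate block and each library left out. A few list members are not reported here.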

Additional observations from a re-analysis of the deposited data

Results flagged for a closer look

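Percentages of ribosomal and mitochondrial reads in the deposited read statistics, which no comparison used, were flagged because both Th17 libraries lay above both naive libraries. Reads on ribosomal RNA averaged 2.66% in the Th17 libraries, at 2.57 and 2.75%, against 2.06 and 1.92% in the naive libraries. The Th17 cultures with a ligand lay on both sides of the naive values, at 1.73 and 3.04% with PAM3CSK4 and 1.43 and 1.90% with biglycan. Reads on mitochondrial RNA averaged 15.9% in the Th17 libraries, at 15.7 and 16.0%, against 11.98 and 9.87% in the naive libraries. They were at 14.3 and 14.7% with PAM3CSK4 and at 15.9 and 16.1% with biglycan. With 2 libraries per group neither difference was tested.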

How the results depend on the processing

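Counts over all tested genes stayed within 1.5 times of 4395 higher and 3995 lower under every alternative run. They were 4051 and 3573 with DESeq2, 4652 and 3711 with library sizes alone, 4102 to 4237 and 3663 to 3910 with a library left out, and 4027 and 3590 without copy genes, an alternative added after seeing the data. The replicate block gave 4481 and 4089. Whether the numbers pair the libraries is not labelled. The deviations of Th17 replicate 1 and naive replicate 1 from their group means correlated at 0.028 over 11629 genes. That value rests on 2 libraries per group and cannot decide whether libraries were paired. Genes with no naive counts and at least 10 in Th17, 349 with both libraries, numbered 533 with naive replicate 1 alone at 0 and 223 with Th17 replicate 2 alone. The converse, 45 genes, became 88 with Th17 replicate 1 alone at 0, 88 with Th17 replicate 2 alone, 17 with naive replicate 1 alone and 21 with naive replicate 2 alone. Only members changed at least 2-fold left 0 promoters with the E2F motif among replication genes that fell and 0 with the amino acid response element among members of the amino acid list that fell, since fewer genes remained. Of 303 named genes that passed, 4 lost the call under at least 1 alternative (Tbx21 and Psmb5 as given above, and Chrm3 and Ifi44 with DESeq2), and of those that did not pass 4 gained it (Lat, Bcl11b, Myc and Psmb6, as given above). No named gene changed direction while called. The majority direction changed in 14 of 65 lists, whose counts of risen and fallen members differed by at most 3, under at least 1 alternative. Depth limits genes near 1 CPM, where 2 libraries per group give few counts.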
